A study of Saccharomyces cerevisiae with 8 samples.

Results

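Transcripts of the mitochondrial ribosome's proteins were followed in budding yeast given carnitine, hydrogen peroxide or both. Carnitine is a quaternary amine that carries activated acyl groups between cell compartments. The genes were taken by symbol, as the single-gene probe sets named MRPL, MRPS, MRP or RSM with a number, without MRP8, which belongs to the set by symbol only. This gave 65 genes out of 5449 S. cerevisiae genes on the array, each with 1 probe set, of which 37 encode large-subunit and 28 small-subunit proteins. All 65 lay above the background floor and were tested. One further gene of the current annotation that fits the rule, MRP35, was not analysed here.

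Every culture was of strain BY4742, recorded as MATa his3 leu2 lys2 ura3, in synthetic complete dextrose medium and harvested at mid-log phase. Each of the 4 groups had 2 cultures. One group was left untreated as control, one was given carnitine, one was exposed to 0.4 mM hydrogen peroxide over 30 min before harvest, and the last was grown with carnitine and then exposed in the same way. The carnitine dose is 100 mg/L in one source and 1000 mg/L in another. The recorded mating type was not borne out by the signals, since MF(ALPHA)1, for the α pheromone, read 46478 to 51980 and MFA1, for the a pheromone, 82.0 to 166. RNA came from whole cultures of 1 strain, so fewer cells with a transcript and less transcript per cell cannot be told apart. Median signals of the 5324 tested genes ran from 3044 to 3198 on the 8 arrays. With 2 arrays in each group, precision is limited throughout.

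The mitochondrial ribosome translates the few messages encoded by mitochondrial DNA, which in yeast specify core subunits of the respiratory chain and the ATP synthase. Nearly all its proteins are encoded in the nucleus, made in the cytosol, imported and assembled with ribosomal RNAs made inside the organelle. Some have bacterial relatives and others occur only in mitochondrial ribosomes, and many of their mRNAs in yeast are bound by the RNA-binding protein Puf3.

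In the text a change is a log2 difference ± SE from a linear model (limma) over all 8 arrays. The words rose and fell are kept for genes with a p below 0.05 after adjustment over all tested genes. Mean signals of the 65 genes ran from 655 (MRPL4) to 18503 (MRPS12), against a floor of 4.14 set by probe sets of fission yeast. Signals of different probe sets are not compared with each other. The median difference between replicate arrays over these genes was 0.0790 in control, 0.159 in carnitine, 0.103 in peroxide and 0.0893 in carnitine with peroxide on the log2 scale. Over all tested genes it was 0.0898, 0.0904, 0.0984 and 0.0865, so the carnitine pair lay farther apart for the ribosomal genes than for genes at large. In that pair 55 of 65 genes (84.6%, against 49.1% of all tested genes) were higher in replicate 1, with a median difference of 0.16. The peroxide pair leaned the same way in 56 genes (86.2%, against 54.7%), with a median difference of 0.10. With both treatments 47 genes did (72.3%, against 53.7%).

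**Figure D1:**
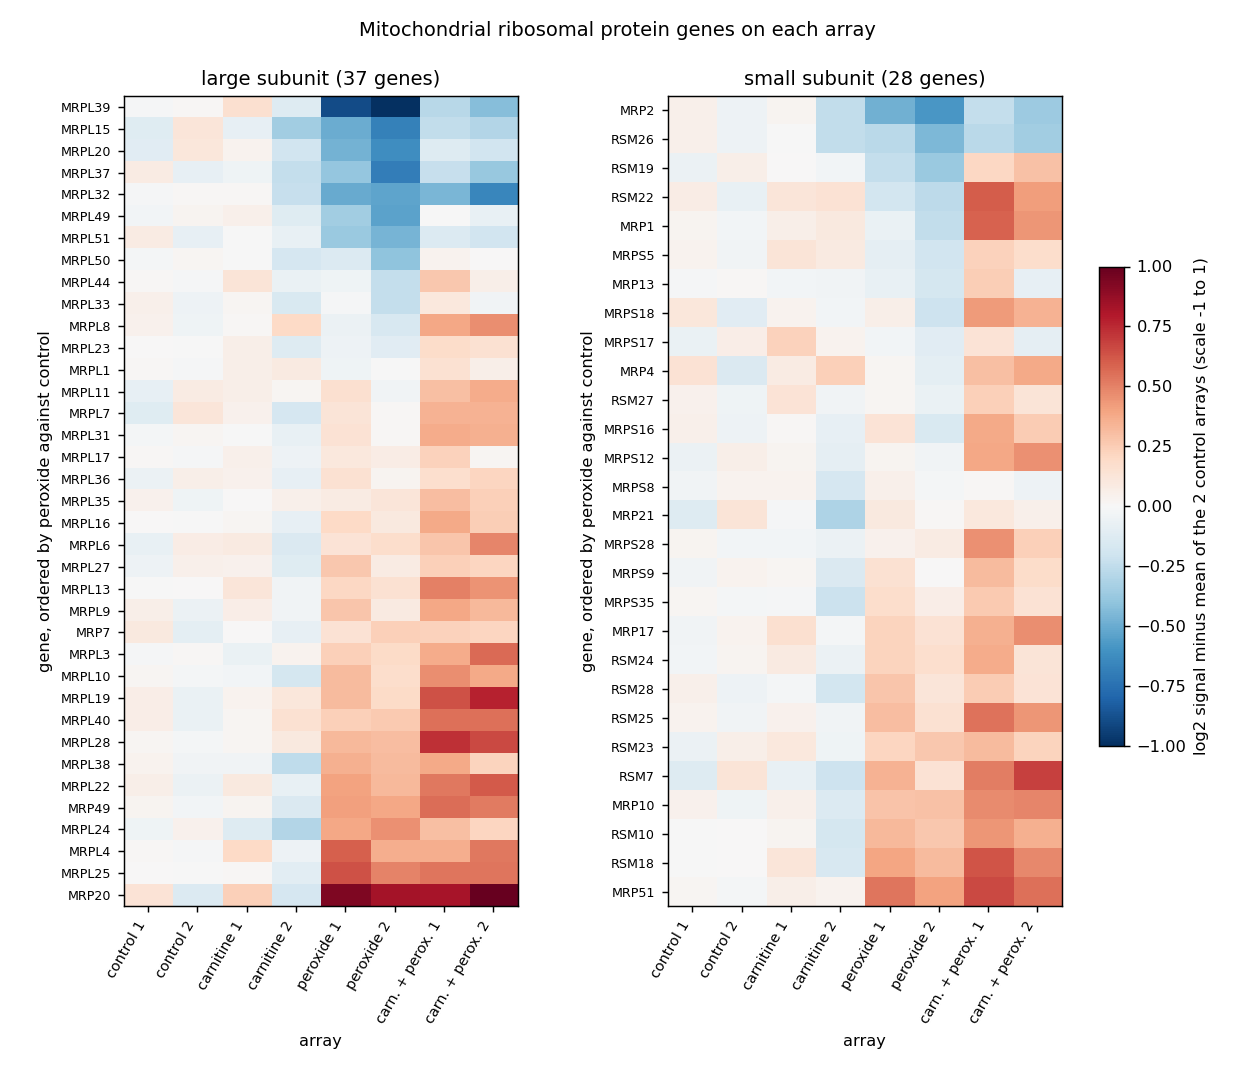
Log2 signal of each gene on each of the 8 arrays, relative to the mean of the 2 control arrays (colour, -1 to 1), for 37 large-subunit (left) and 28 small-subunit genes (right), ordered by the change with peroxide alone. The carnitine columns stay pale, the peroxide columns run from blue to red, and the columns for carnitine with peroxide are red for most genes.

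Peroxide alone against control asks how these transcripts respond to oxidant. The response was small and ran both ways. There were 18 rises and 11 falls among the 65 genes, 36 did not pass, and the median change was 0.08. The 29 changed genes are 44.6% of the set, whereas 74.8% of all tested genes changed, 35.3% upward and 39.5% downward. One of the 65 changed at least 2-fold (1.54%), against 24.5% of all tested genes. The 25th and 75th percentiles of the change were -0.52 and 0.49 over all tested genes and -0.12 and 0.24 over the ribosomal genes.

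The rise of highest value was in the large subunit. MRP20 (YDR405W), for the uL23 family protein at the exit of the tunnel through which the new chain leaves, read 639 and 531 in control, 689 and 519 with carnitine, 1114 and 1035 with peroxide, and 1033 and 1190.1 with both. All 4 peroxide-exposed arrays lay above the 4 others, and the rise was 0.88 ± 0.17 (adjusted p = 0.00176). MRPL4 (YLR439W), for the uL29 family protein beside it, read 548 and 539 in control and 823 and 699 with peroxide, a rise of 0.48 ± 0.13 (adjusted p = 0.0124). MRPL22 (YNL177C), whose protein belongs to the uL22 family that lines the tunnel, rose by 0.36 ± 0.080 (adjusted p = 0.00392). MRPL22 is given here as a gene of the fixed list, not for the size of its rise. Genes for proteins at the tunnel were not collected or tested as a group, so no pattern for the tunnel is drawn from these genes. The 2 control arrays did not overlap with the 2 peroxide arrays for MRP20, MRPL4 or MRPL22. The same held for 50 of the 65 genes and for 4667 of the 5324 tested. MRPL25 (YGR076C), for a protein found only in mitochondrial ribosomes, went from 3564 and 3526 to 5511 and 4989 and rose by 0.56 ± 0.073 (adjusted p = 0.00024). MRPL24 (YMR193W), of the bL28 family, rose by 0.42 ± 0.084 (adjusted p = 0.0024), and the other 8 large-subunit rises lay between 0.18 (MRPL13) and 0.40 (MRP49).

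In the small subunit 5 of 28 genes rose. MRP51 (YPL118W), whose protein has been linked to the leader sequences of mitochondrial messages, read 5952 and 5798 in control and 8504 and 7767 with peroxide, and rose by 0.47 ± 0.066 (adjusted p = 0.000375). RSM18, of the bS18 family, rose by 0.36 ± 0.095 (adjusted p = 0.00971) and RSM10, of the uS10 family, by 0.29 ± 0.073 (adjusted p = 0.00717). MRP10 (YDL045W-A), for a small cysteine-rich protein, went from 6135 and 5792 to 7265 and 7293, a rise of 0.29 ± 0.072 (adjusted p = 0.0072). The fifth was RSM23, whose human relative is the GTP-binding protein DAP3, with 0.24.

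The falls were fewer and included the 1 change above 2-fold. MRPL39 (YML009C), for the bL33 family protein, read 10803 and 11031 in control and 5866 and 4827 with peroxide, and fell by 1.04 ± 0.12 (adjusted p = 0.000126). MRPL15 (YLR312W-A), whose protein has a ribonuclease III-like domain, fell by 0.58 ± 0.12 (adjusted p = 0.00252). MRPL20 and MRPL37, both for proteins particular to mitochondria, fell by 0.54 ± 0.11 (adjusted p = 0.00221) and fell by 0.54 ± 0.12 (adjusted p = 0.00415). MRPL32 (YCR003W), whose protein matures through cleavage by the inner-membrane m-AAA protease, read 7711 and 7849.6 in control and 5481 and 5402 with peroxide, a change of -0.52 ± 0.094 (adjusted p = 0.0015). MRPL49, MRPL51 and MRPL50 made up the 8 falls of the large subunit, with changes from -0.44 to -0.27. In the small subunit MRP2, of the uS14 family, fell by 0.53 ± 0.099 (adjusted p = 0.00165), RSM26, a relative of superoxide dismutases, fell by 0.36 ± 0.097 (adjusted p = 0.0107) and RSM19, of the uS19 family, fell by 0.30 ± 0.079 (adjusted p = 0.00905).

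Other genes of central ribosomal function did not pass. MRP7, for the bL27 family protein near the peptidyl transferase centre, had 0.19 ± 0.078 (adjusted p = 0.055), and MRPL6, of the uL6 family, 0.16 ± 0.11 (adjusted p = 0.218). MRPL36, of the bL31 family, had 0.09 ± 0.072 (adjusted p = 0.279). MRPS12, for the uS12 family protein at the decoding site, had -0.01 ± 0.064 (adjusted p = 0.945), MRPS5 -0.14 ± 0.072 (adjusted p = 0.116) and the methyltransferase-like RSM22 -0.22 ± 0.11 (adjusted p = 0.0908).

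All directions are relative to the overall array signal, and for peroxide alone they turned with the scaling. Scaling to poly-A spikes, bacterial transcripts added to the RNA, moved all genes by -0.63 and gave 0 rises and 42 falls. Scaling to hybridisation spikes moved them by 0.47 and gave 53 rises and 1 fall, and centring each array on its median gave 13 and 14. The mean poly-A spike signal of the 2 control arrays was 8.75 and 9.18 (log2). The median change of the ribosomal genes was 0.11 above the median change of all tested genes, a difference that no such scaling alters. After centring on array medians the ribosomal median change itself was 0.03.

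**Figure D2:**
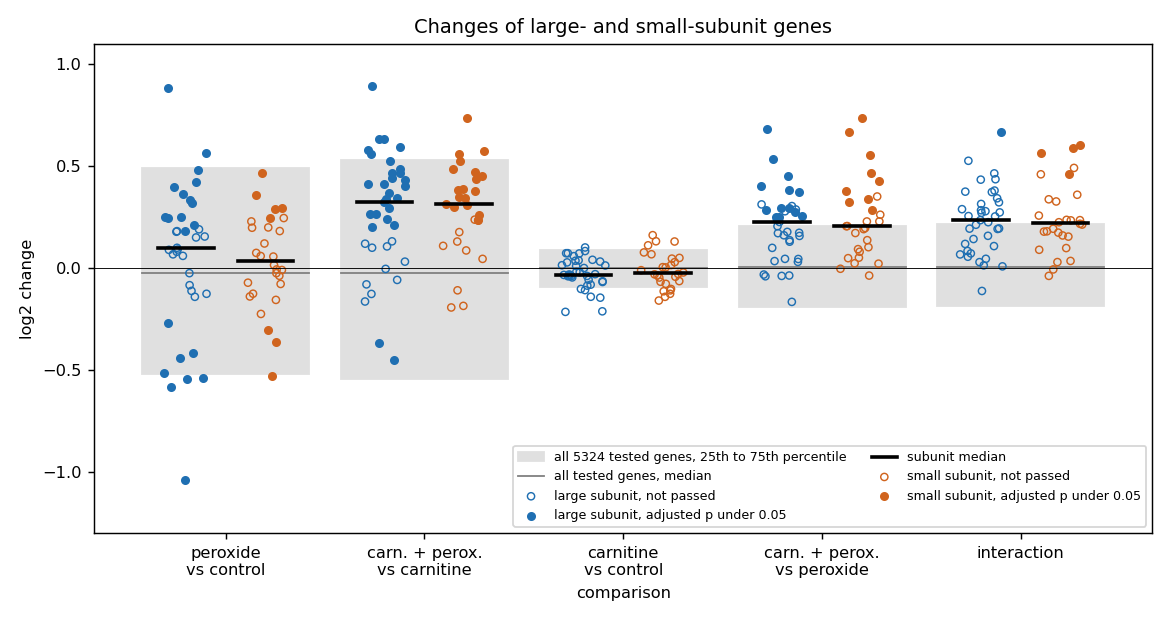
Log2 change of each large-subunit (blue) and small-subunit gene (orange) in the 5 comparisons, filled where adjusted p was below 0.05, with subunit medians (black bars) and the 25th to 75th percentile and median of all tested genes (grey). The subunit medians lie within 0.07 of each other in each comparison, and both lie near the 75th percentile of all genes for carnitine with peroxide against peroxide and for the interaction.

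In carnitine-fed cells the same exposure raised most of the set. There were 43 rises and 2 falls, 20 genes did not pass, and the median change was 0.32, or 24.4% higher. The changed share, 69.2%, was below that of all tested genes, 74.9%, but 35.8% of all genes rose and 39.1% fell, where 66.2% and 3.08% of the ribosomal genes did. In the large subunit 25 of 37 rose and 2 fell, and in the small subunit 18 of 28 rose and 0 fell. None of the 65 reached 2-fold, against 25.6% of all tested genes. Under poly-A scaling 25 rose and 0 fell, under hybridisation spike scaling 56 and 0.

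In the large subunit MRP20 rose by 0.89 ± 0.17 (adjusted p = 0.00161), MRPL22 by 0.56 ± 0.080 (adjusted p = 0.00038) and MRPL4 by 0.37 ± 0.13 (adjusted p = 0.0373). MRPL28 (YDR462W), for a protein particular to mitochondria, read 2786 and 2953 with carnitine and 4574 and 4339 with both, and rose by 0.64 ± 0.067 (adjusted p = 7.12e-05, the lowest of the set in this comparison). MRPL19 (YNL185C), of the uL11 family at the base of a stalk where translation factors bind, went from 2324 and 2447 to 3525 and 3876, a rise of 0.63 ± 0.089 (adjusted p = 0.000351). Its annotated span overlaps the open reading frame YNL184C, as those of MRP4 and MRPL51 overlap YHL005C and YPR099C. MRP49 rose by 0.59 ± 0.068 (adjusted p = 0.000105). MRP7, MRPL6 and MRPL36 rose as well, by 0.26 ± 0.078, 0.41 ± 0.11 and 0.21 ± 0.072.

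In the small subunit the largest rise was that of RSM7 (YJR113C), of the uS7 family, from 2216 and 2020.3 with carnitine to 3332 and 3739 with both (0.74 ± 0.12, adjusted p = 0.000793). RSM18 rose by 0.58 ± 0.095 (adjusted p = 0.000832), MRP51 by 0.56 ± 0.066 (adjusted p = 0.000129) and MRP10 by 0.53 ± 0.072 (adjusted p = 0.000293). MRPS12 rose by 0.45 ± 0.064 (adjusted p = 0.000333) and RSM22 by 0.38 ± 0.11 (adjusted p = 0.0125), whereas MRPS5 had 0.09 ± 0.072 (adjusted p = 0.301). The 2 falls were those of MRPL32, -0.45 ± 0.094 (adjusted p = 0.00303), and MRPL39, -0.37 ± 0.12 (adjusted p = 0.0242). Under hybridisation spike scaling MRPL39 had 0.0011 (adjusted p = 0.996).

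The responses without and with carnitine come from different arrays and can be laid side by side. The 18 genes that rose without carnitine all rose with it. Of all tested genes 35.3% rose without carnitine and 35.8% with it, and their overlap was not counted. Each gene has the same SE in both responses, so the 2 calls are not independent. Of the 11 that fell without it, 2 fell with it (MRPL32 and MRPL39), 8 did not pass and 1, RSM19, rose. A further 24 genes, 12 of each subunit, passed only as rises in carnitine-fed cells, among them MRP1, MRP7, MRPL31, MRPS12, RSM7 and RSM22. The remaining 12, 4 large and 8 small, passed in neither. None of these patterns was counted over all tested genes, so whether any is more frequent in this set was not tested. Passing on one side and not on the other is no test of a difference, which is given by the interaction. The 2 responses correlated across the 65 genes with Pearson r = 0.853 and Spearman rho = 0.814, and across all tested genes with 0.931 and 0.920. These are descriptions across genes read on shared arrays.

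**Figure D3:**
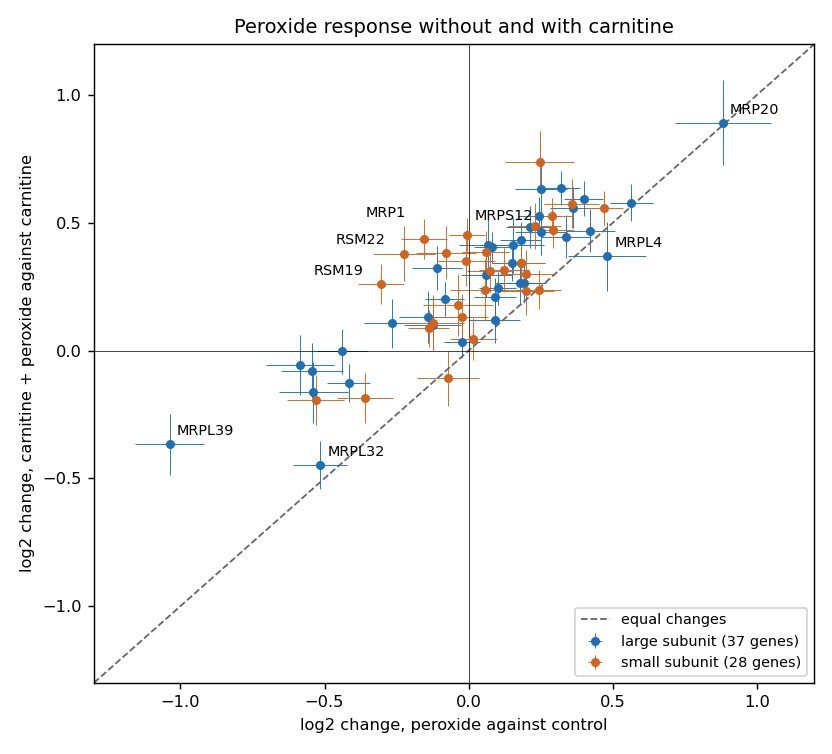
Log2 change with peroxide in cells without carnitine (horizontal) and with carnitine (vertical), ± SE, for 37 large-subunit and 28 small-subunit genes, with a dashed line for equal changes. Points for 62 of 65 genes lie above the line, MRP20 by 0.01, and the 5 genes that passed the interaction test are named together with MRP20, MRPL4 and MRPL32.

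Carnitine alone against control asks whether the supplement acts on unstressed cells, and no change was detected in these genes. None of the 65 passed limma's test at adjusted p below 0.05 (1.5% of all tested genes did, 0.47% upward and 1.03% downward). In the same test 1 of the 65 had an unadjusted p below 0.05, against 772 of the 5324 tested. The median was -0.03 and the range -0.21 to 0.16. Above 0 lay 27 genes and below it 38 (41.5% above 0, against 49.3% of all tested genes). The largest absolute moderated t in the large subunit were those of MRPL24 (-0.21 ± 0.084, adjusted p = 0.319) and MRPL15 (-0.21 ± 0.12, adjusted p = 0.472). In the small subunit they were those of MRPS5 (0.11 ± 0.072, adjusted p = 0.545) and MRP4 (0.16 ± 0.12, adjusted p = 0.607). MRP20, MRP51, MRP10 and MRPS12 had 0.04 ± 0.17, 0.05 ± 0.066, -0.05 ± 0.072 and -0.03 ± 0.064. The median of the set against control was 0.03 on carnitine array 1 and -0.08 on carnitine array 2, so the 2 arrays fell on either side of control. Under poly-A and hybridisation spike scaling 0 genes passed as well.

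Carnitine with peroxide was set against peroxide alone, which asks whether the supplement acts on stressed cells. A minority of the genes passed, all as rises. There were 22 rises and 0 falls, and 43 genes did not pass. The median was 0.21, or 15.4% higher, and 58 genes lay above 0 and 7 below (89.2% above 0, against 51.7% of all tested genes). The changed share was 33.8%, close to the 35.5% of all tested genes, of which 18.8% rose and 16.7% fell. By subunit 13 of 37 large and 9 of 28 small genes rose. The number that rose was 7 without peroxide array 2, 8 without carnitine with peroxide array 1 and 15 without its array 2, and 65 rose under poly-A scaling (which moved all genes by 0.81) and 14 under hybridisation spike scaling.

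The 5 largest rises were in genes whose 2 peroxide arrays were the lowest of the 8. The rises are measured from those same arrays, so ranking by them favours such genes. Across the set that pattern was no more frequent (18.5%) than among all tested genes (19.3%). RSM22 (YKL155C) read 876 and 831 with peroxide and 1519 and 1331 with both, against 1049.6 and 947 in control, and rose by 0.74 ± 0.11 (adjusted p = 0.00353). MRPL39 rose by 0.68 ± 0.12 (adjusted p = 0.00606), from 5866 and 4827 to 8997 and 8119, which remained below both control arrays. MRP1 (YDR347W), which like RSM26 encodes a relative of superoxide dismutases, went from 5902 and 5228 to 9314 and 8383 and rose by 0.67 ± 0.079 (adjusted p = 0.00289). In all 3 genes the arrays of the 2 peroxide-exposed groups did not overlap, which the rule for naming genes required. The same held for 47 of the 65 genes and for 3912 of the 5324 tested.

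RSM19 rose by 0.55 ± 0.079 (adjusted p = 0.00353), MRPL8, of the bL17 family, by 0.54 ± 0.087 (adjusted p = 0.00478) and MRPS18, of the uS11 family, by 0.47 ± 0.10 (adjusted p = 0.0131). MRPL19 rose by 0.45 ± 0.089 (adjusted p = 0.0087), MRPS12 by 0.43 ± 0.064 (adjusted p = 0.00368), MRPL49, of the bL21 family, by 0.40 ± 0.087 (adjusted p = 0.0117) and MRPS5 by 0.34 ± 0.072 (adjusted p = 0.0112). Several of the genes described above did not pass. MRP20 had 0.05 ± 0.17 (adjusted p = 0.853), MRPL4 -0.04 ± 0.13 (adjusted p = 0.852) and MRPL22 0.21 ± 0.080 (adjusted p = 0.0815). MRPL32 had -0.04 ± 0.094 (adjusted p = 0.771), MRP7 0.04 ± 0.078 (adjusted p = 0.753), MRPL36 0.10 ± 0.072 (adjusted p = 0.305) and MRPL6 0.23 ± 0.11 (adjusted p = 0.131). MRP51 and MRP10 had 0.14 ± 0.066 (adjusted p = 0.14) and 0.19 ± 0.072 (adjusted p = 0.0732).

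The highest signals of the set were mostly those of carnitine with peroxide. In 35 of 65 genes (53.8%), 18 large and 17 small, both arrays of that group lay above the other 6, a pattern found in 17.6% of all tested genes. Both lay below the other 6 in 0 of the ribosomal genes and in 16.7% of all genes. Both peroxide arrays lay below the other 6 in 12 ribosomal genes (18.5%) and in 19.3% of all genes. All 4 peroxide-exposed arrays lay above the 4 others in 30 genes (46.2%, against 33.9% of all genes) and below them in 4 (6.15%, against 37.5%), which were MRPL32, MRPL39, MRPL51 and RSM26.

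The interaction asks whether carnitine changed the peroxide response itself, and 5 genes passed, all with a higher response in carnitine-fed cells. They were MRP1, MRPS12, RSM19 and RSM22 of the small subunit and MRPL39 of the large, 7.69% of the set against 12.8% of all tested genes (7.72% upward and 5.11% downward). The interaction was above 0 in 62 of 65 genes (95.4%), against 51.1% of all tested genes. Its median was 0.23 against 0.01 for all genes. By limma 24 genes had an unadjusted p below 0.05, against 1708 of the 5324 tested. The genes were read on the same 8 arrays and are not separate observations of the treatment.

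MRPL39 had 0.67 ± 0.17 (adjusted p = 0.0439), the fall of 1.04 without carnitine being 0.37 with it. RSM22 had 0.60 ± 0.15 (adjusted p = 0.0427) and MRP1 0.59 ± 0.11 (adjusted p = 0.0248), 2 genes with changes of -0.22 and -0.16 without carnitine that rose by 0.38 and 0.44 with it. RSM19 (YNR037C) read 3221 and 3506 in control, 3374 and 3302 with carnitine, 2852 and 2601 with peroxide and 3885 and 4114 with both, an interaction of 0.56 ± 0.11 (adjusted p = 0.0275). It was the 1 gene of the set that fell without carnitine and rose with it. MRPS12 (YNR036C) read 16438 and 17857, 17506 and 16088, and 17439 and 16698 in the first 3 groups, which overlap, and 22421 and 23579 with both (0.46 ± 0.090, adjusted p = 0.0265). RSM19 and MRPS12 are next to each other on the chromosome, the only such pair in the set. MRPL31 came closest among the other large-subunit genes (0.32 ± 0.088, adjusted p = 0.0516). MRP20, MRPL32 and MRPL4 had 0.01 ± 0.23, 0.07 ± 0.13 and -0.11 ± 0.19.

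These 5 calls depended on single arrays. The number was 0 without control array 1, control array 2, carnitine array 1, carnitine array 2, peroxide array 2 or carnitine with peroxide array 1, 1 without carnitine with peroxide array 2 and 9 without peroxide array 1. It was 62 under poly-A scaling, which moved all genes by 0.73, and 0 under hybridisation spike scaling, which moved them by -0.10.

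**Figure D4:**
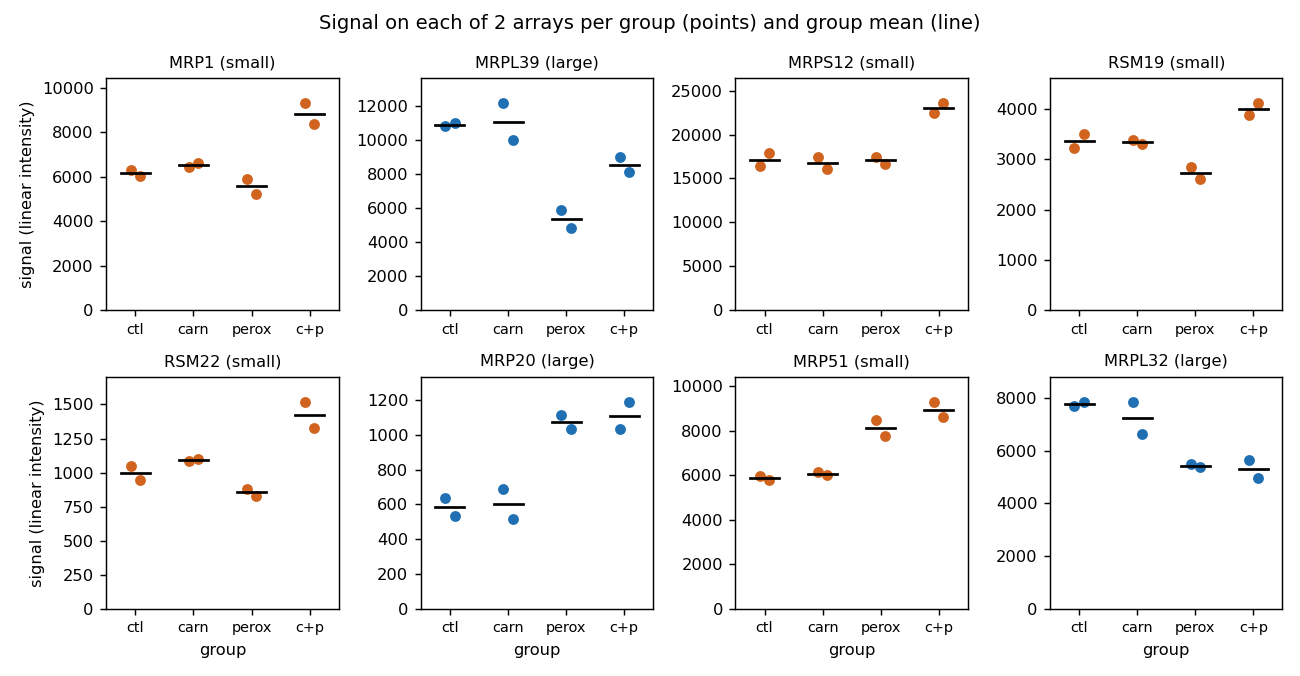
Linear signal on each array (points) and group mean (line) for the 5 genes that passed the interaction test and for MRP20, MRP51 and MRPL32, in control (ctl), carnitine (carn), peroxide (perox) and both (c+p), with axes from 0. RSM22, MRP1, RSM19 and MRPS12 peak with both treatments, MRP20 is as high with peroxide alone, and MRPL32 is low in both peroxide groups.

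The large and the small subunit had similar medians. With peroxide alone the medians were 0.10 and 0.04, in carnitine-fed cells 0.32 and 0.31, with carnitine alone -0.03 and -0.02, and with carnitine under peroxide 0.23 and 0.21. The large-minus-small difference, which array scaling does not alter, was 0.064, 0.010, -0.0066 and 0.020, and 0.014 for the interaction, where replicate arrays differed with an SD of 0.018. On single arrays it was -0.01 and 0.01 in control, -0.01 and -0.02 in carnitine, 0.07 and 0.09 in peroxide, and -0.04 and -0.0035 with both. The peroxide pair alone lay clear of the other arrays, and no test was made over the genes. With peroxide alone more of the large than of the small subunit passed, 21 of 37 (56.8%) against 8 of 28 (28.6%), a difference not tested. Both shares lay below the 74.8% of all tested genes.

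The genes were also sorted by ancestry. The 40 genes with bacterial relatives had medians of 0.06, 0.34, -0.03 and 0.22 in the order of the first 4 comparisons, and the 24 particular to mitochondria 0.11, 0.25, -0.03 and 0.21; RSM22 was put in neither. In carnitine-fed cells the bacterial-minus-specific difference, 0.088, was wider than the subunit difference in any comparison fitted on all 8 arrays. On peroxide array 2 alone the subunit difference was 0.0935. With peroxide alone the bacterial-minus-specific difference had the other sign, -0.046. It was not tested, and neither a replicate SD nor a range with arrays left out was computed for it. With peroxide alone 11 rose and 6 fell among the former (42.5% changed) and 7 rose and 5 fell among the latter (50%). Of all tested genes 74.8% changed, 35.3% upward and 39.5% downward. In carnitine-fed cells 28 rose and 2 fell (75%), and 14 rose and 0 fell (58.3%). There 74.9% of all tested genes changed, 35.8% upward and 39.1% downward. The 11 genes that fell with peroxide alone had a median annotated length of 423 bases, those that rose 784.5 and those that did not pass 747. Across the 65 genes length and change had a Spearman rho of 0.223, against -0.0709 over all tested genes, which is a weak relation.

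Other nuclear genes of mitochondrial translation were counted in the same way, to be read against all tested genes, of which 35.3% rose and 39.5% fell with peroxide alone, 35.8% and 39.1% in carnitine-fed cells, and 18.8% and 16.7% with carnitine under peroxide. Of 13 ribosomal protein genes outside the symbol rule, the 8 of the large subunit gave 3 rises and 0 falls with peroxide alone and 6 and 0 in carnitine-fed cells, and the 5 of the small subunit 1 and 0, then 4 and 0. With carnitine under peroxide 5 of the 8 and 2 of the 5 rose and 0 fell. Initiation, elongation and release factors (8 tested of 9) gave 4 rises and 2 falls, then 6 and 1, and 5 and 0 with carnitine under peroxide. The 13 mitochondrial tRNA synthetase genes gave 6 and 3, then 10 and 1, and 4 and 2. The 14 activators of single mitochondrial messages gave 3 rises and 8 falls with peroxide alone, 3 and 6 in carnitine-fed cells, and 4 and 0 with carnitine under peroxide. The 10 genes of assembly, rRNA modification and mitochondrial transcription, with PUF3 counted among them, gave 4 and 5, 3 and 5, and 3 and 3. Among the 128 cytosolic ribosomal protein genes 1 rose and 114 fell with peroxide alone (median -0.32), where the mitochondrial set gave 18 and 11. In carnitine-fed cells 1 rose and 121 fell (median -0.48), against 43 and 2, and with carnitine under peroxide 2 rose and 65 fell (median -0.16), against 22 and 0. All these counts are on the deposited scaling, and the differences between these lists were not tested.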

How the data were processed

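Biotin-labelled total RNA of 8 cultures was read on Affymetrix yeast arrays. The deposited values are linear intensity, 1 per probe set and array, made by the authors with GCOS per the submitters' processing notes. Its version, and how signals were summarised, background-corrected or scaled, were not found in the labels. Of 10928 probe sets (signals 3.205 to 79918) 5498 carried 1 S. cerevisiae gene by the platform table. 12 symbols were updated through gene identifiers, and 0 value columns went unused. A gene with more than 1 probe set was represented by its brightest. Genes above the floor, the 95th percentile of fission yeast probe set means (2.05 on the log2 scale), were tested: 5324, with 125 dropped. The log2 intensity of all 8 arrays went into limma 3.58.1 (R 4.3.3) with 1 mean per group, with a variance trend (4 residual and 3.44 prior degrees of freedom) and Benjamini-Hochberg adjustment within each of 5 comparisons. Spike scalings used 5 poly-A and 9 hybridisation probe sets with mean signal above 100. The procedure was tested on simulated data. Figures used matplotlib 3.10.9 in Python 3.11.15. The genes, lists and tests were chosen with earlier results of these data known. Named genes were, per subunit and comparison, the 4 largest rises and 4 largest falls among called genes with non-overlapping arrays (no such condition for the interaction), the 2 largest absolute t where fewer than 2 were called, and 12 fixed genes. Other genes named as examples were chosen after their values were seen. p-values measure the spread between cultures, pooled over 4 groups. Alternatives were other scalings, filters, variance models, an offset, all probe sets, other thresholds, a block for replicate number, and leaving out arrays. No sequence or genome coordinate is reported here. Which genes neighbour or overlap each other was taken from the RefSeq gene table (assembly R64).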

Additional observations from a re-analysis of the deposited data

Results flagged for a closer look

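The peroxide response differed with carnitine, by the interaction term of limma, in 5 of the 65 genes. The log2 interactions were 0.67 for MRPL39, 0.60 for RSM22, 0.59 for MRP1, 0.56 for RSM19 and 0.46 for MRPS12, each a higher response in carnitine-fed cells. Leaving out 1 array gave between 0 and 9 such genes, and the array scaling gave between 0 and 62. The share these 5 make up, 7.69%, is below the 12.8% of all tested genes. With 2 cultures per group no search for outlying arrays was possible within a group.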

How the results depend on the processing

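Counts of changed genes for peroxide alone (29), peroxide in carnitine-fed cells (45), carnitine alone (0), carnitine under peroxide (22) and the interaction (5) were compared over 21 alternatives. Leaving out 1 array gave 22 to 29, 32 to 45, 0 to 0, 7 to 22 and 0 to 9. Without peroxide array 1 there were 23 for peroxide alone, 11 rises and 12 falls. Poly-A scaling gave 42 for peroxide alone (0 rises), 25 in carnitine-fed cells, 65 for carnitine under peroxide and 62 for the interaction. Hybridisation spike scaling gave 54 (53 rises), 14 for carnitine under peroxide and 0 for the interaction. Median centring gave 27 for peroxide alone (13 rises, 14 falls). A 1.5-fold minimum left 2, 5, 3 and 3 genes, in the order peroxide alone, carnitine-fed, carnitine under peroxide and interaction. The interaction count was 3 with no filter, 10 with the filter at the 40th percentile, 16 at an adjusted p of 0.10 and 12 with a replicate block. The replicate numbers gave correlations of deviations from -0.112 to 0.132 between groups and are not stated to pair cultures; the block moved no other count by over 1.5 times.

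The large-minus-small difference (0.064, 0.010, -0.0066, 0.020 and 0.014 in that order of comparisons) ranged with arrays left out from 0.0637 to 0.0935, -0.0855 to 0.0430, -0.0249 to 0.0044, -0.0364 to 0.0399 and -0.0401 to 0.0404. It was -0.00084 for carnitine under peroxide without peroxide array 2 and -0.0364 without carnitine with peroxide array 2. With the filter at the 40th percentile it was 0.0337 for peroxide alone, -0.0309 in carnitine-fed cells and 0.0369 for the interaction. Sign changes were counted where the value as reported or the value under that alternative passed the test. For named genes these arose under spike scaling alone, while genes near 0 such as MRPS12 with peroxide alone also changed sign, without passing, when 1 array was left out. For peroxide alone poly-A scaling gave -0.34 for MRP10, -0.16 for MRP51, -0.27 for MRPL22, -0.21 for MRPL24, -0.068 for MRPL25, -0.54 for MRPL36, -0.15 for MRPL4, -0.48 for MRPL6, -0.34 for RSM10 and -0.28 for RSM18. Hybridisation scaling gave 0.46 for MRPS12, 0.33 for MRPS5, 0.17 for RSM19 and 0.11 for RSM26, and 0.0011 for MRPL39 in carnitine-fed cells. For carnitine under peroxide poly-A scaling gave 0.77 for MRPL32 and 0.78 for MRPL4. The interaction needs all 4 groups, so a fit on only the arrays compared was not run for it. The 65 genes lay above the floor on all 8 arrays, and the number of arrays limits the precision.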

Other observations

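The tested genes outside the set whose signals followed its mean most closely over the 8 arrays were DSF1, IZH4, YEF1, DIP5 and ACB1, with Pearson r of 0.980, 0.980, 0.977, 0.976 and 0.971. These values describe 8 arrays in 4 groups and carry no test. The mean of the set, centred per gene, was highest on the 2 arrays with both treatments (0.217 and 0.163). Genes picked to follow it share that pattern by selection, so their changes are given without p-values. ACB1, for the acyl-CoA binding protein, had 0.33 ± 0.052 with peroxide in carnitine-fed cells and 0.03 ± 0.052 without carnitine. Its interaction was 0.29 ± 0.074. IZH4, of a membrane protein family linked to zinc, had a larger interaction, 1.18 ± 0.30. DIP5, for a dicarboxylic amino acid permease, had 0.52 ± 0.12 in carnitine-fed cells and an interaction of 0.54 ± 0.16.

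Within the set the correlation of single genes with the mean ran from -0.561 (MRPL32) to 0.975 (MRPL31), with a median of 0.802, and 7 of 65 were below 0. Replicate 1 read higher than replicate 2 in 37 of 65 genes in control, 55 in carnitine, 56 in peroxide and 47 in carnitine with peroxide, or 56.9%, 84.6%, 86.2% and 72.3%, against 48.4%, 49.1%, 54.7% and 53.7% of all tested genes.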
